A study of Homo sapiens with 4 samples.

Results

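The 40 genes described here encode the machinery that starts and carries out DNA replication and the cyclins and factors that let a cell pass from G1 into S phase. They were taken as a list of symbols, matched to the annotation of the Affymetrix Human Genome U133 Plus 2.0 array, and each gene is represented by its brightest probe set. All 40 were found among the 19775 genes named on the array, and all 40 lay above the detection floor of 23.8 and above a stricter floor of 95.3 on all 4 arrays.

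The cells were U937, an established human myelomonocytic line that the labels call a lymphoma line and the title a leukemia line. There were 4 groups with 1 array each: cells with no treatment (control), cells given Sonazoid at 0.05% (Sonazoid only), cells exposed for 1 min to ultrasound of 0.3 W/cm2 (the ultrasound only group), and cells given both at those settings (the combination). Sonazoid is an ultrasound contrast agent made of gas-filled microbubbles. Treated cells were kept for 3 h before RNA was taken; for the control the sources used here state no such time. No replicates were available, so no difference below has a replicate check, no test between groups was made, and the number of arrays limits the precision. Signals are probe set intensities scaled to a common trimmed mean, and they are compared between arrays but not between genes.

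A cell licenses its origins in G1, when the origin recognition complex, CDC6 and CDT1 load the ring of MCM2 to MCM7 onto DNA. In S phase CDC45 and the GINS complex join the ring and turn it into an active helicase, and polymerases held on DNA by the PCNA clamp copy the strands. Cyclin D and cyclin E kinases release E2F factors from the retinoblastoma protein, and E2F factors switch on many of these genes as cells enter S phase. In a dividing line such as U937 these transcripts are abundant, and their sum depends on how many cells are cycling. In bulk RNA a smaller share of cells in S phase and less transcript per cell cannot be told apart.

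Many of the genes, but not all, hold a promoter feature that their choice did not use. E2F words (TTTGGCGC, TTTCCCGC, TTTGCCGC or TTTCGCGC on either strand) were searched in the RefSeq promoter windows of build GRCh38.p14, each from 250 bases before to 50 bases after a start site. Windows were held for 34 of the 40 genes, 44 windows in all, and 17 of these (38.6%) held an E2F word, against 3.31% of all 35114 windows and 5.44% of the 10008 windows of genes above the stricter floor on all arrays. The 17 windows belonged to 17 different genes, and 5 genes had at least 2 words in a window, with 4 in that of MCM6. The CCAAT box was in 61.4% of the member windows, 34.6% of all windows and 35.7% of the windows of genes above the stricter floor. GGGCGG, the GC box, was in 72.7%, 45.0% and 67.7%, so its share in the list was near that of genes above the stricter floor. TTTGAA, the core of the cell cycle homology region found in mitotic promoters, was in 2.27%, 15.2% and 10.9%. On the other strand an E2F word can read GCGGGAAA, which can share letters with the end of a GC box. A match describes the letters and is not a measured binding site.

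The stretches that follow show the words where they lie within 100 bases of the start site, for genes of different roles. Each runs 5′ to 3′ on the strand of its gene and ends at the base before the start site, with the E2F words of either strand in capitals. In MCM6 the capitals are a pair of overlapping words, which begin 90 and 86 bases before the start, and in E2F1 there are separate words at 33 and 20 bases.

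MCM6, chr2:135876444-135876543, minus strand: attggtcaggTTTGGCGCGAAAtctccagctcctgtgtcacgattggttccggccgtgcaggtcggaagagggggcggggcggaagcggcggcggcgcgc
MCM7, chr7:100101398-100101497, minus strand: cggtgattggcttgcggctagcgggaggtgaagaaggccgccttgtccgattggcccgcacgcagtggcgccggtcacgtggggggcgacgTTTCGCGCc
CDT1, chr16:88803689-88803788, plus strand: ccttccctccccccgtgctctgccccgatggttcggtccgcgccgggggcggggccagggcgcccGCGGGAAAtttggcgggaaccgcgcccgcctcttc
GINS2, chr16:85688955-85689054, minus strand: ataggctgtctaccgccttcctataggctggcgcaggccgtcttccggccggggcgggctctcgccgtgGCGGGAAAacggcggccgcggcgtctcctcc
PCNA, chr20:5126623-5126722, minus strand: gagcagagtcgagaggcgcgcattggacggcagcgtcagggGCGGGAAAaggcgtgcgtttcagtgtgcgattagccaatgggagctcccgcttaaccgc
POLE, chr12:132687343-132687442, minus strand: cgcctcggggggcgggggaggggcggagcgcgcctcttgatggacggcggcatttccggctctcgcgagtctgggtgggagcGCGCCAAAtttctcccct
E2F1, chr20:33686386-33686485, minus strand: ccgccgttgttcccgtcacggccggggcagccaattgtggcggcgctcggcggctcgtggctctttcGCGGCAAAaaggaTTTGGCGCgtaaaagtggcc

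On all 3 treated arrays the list as a whole stayed near the control. The median log2 difference from control over the 40 genes was -0.01 in the combination, 0.03 with ultrasound only and 0.02 with Sonazoid only, where the medians over all genes measured were -0.003, 0.02 and -0.0003. No gene of the list reached a 2-fold difference from control on any treated array; GINS4 with ultrasound only, at 1.98-fold lower, was the nearest. Among all genes measured in each comparison (above the floor on at least 1 of its arrays) 2.26% were past 2-fold in the combination, 2.37% with ultrasound only and 1.37% with Sonazoid only. Among genes above the stricter floor on both arrays, a floor that all 40 also pass, the shares were 0.575%, 0.562% and 0.024%. The 0 of 40 thus lies near that background. Within 1.2-fold of control on every treated array were 28 of the 40 genes. The matching share of other genes is not given, so this count cannot show whether the list was steadier than they were.

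At a second threshold of 1.2-fold (log2 0.26), 3 genes were higher and 2 lower in the combination, where 18.4% and 16.9% of all genes measured were. With ultrasound only 4 were higher and 1 lower, against 20.8% and 16.2%, and with Sonazoid only 3 were higher and 3 lower, against 13.9% and 13.9%. Dim genes scatter more, so the bright genes (those above the stricter floor) are the closer background. They were not matched to the list in signal, and the part of brightness in the contrasts that follow was not tested. Of the 40 genes 12.5% were past 1.2-fold either way in the combination and 12.5% with ultrasound only, where 23% and 25.4% of the genes above the stricter floor were. With Sonazoid only 15.0% were, close to the 12.5% of bright genes. The median size of the log2 difference gave the same order: 0.11 for the list and 0.14 for bright genes in the combination, 0.10 and 0.15 with ultrasound only, and 0.13 and 0.10 with Sonazoid only.

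These counts move with the scaling. With the values as deposited, which raised the median of all genes in the combination to 0.16, the list had 12 genes higher and 0 lower in the combination, 1 higher and 1 lower with ultrasound only, and 8 higher and 0 lower with Sonazoid only. With arrays scaled to the median of all probe sets the splits were 1 higher and 4 lower in the combination. With ultrasound only they were 1 and 1. The deposited values put the medians of all genes at -0.02 with ultrasound only and 0.09 with Sonazoid only. Shares of all genes past 1.2-fold are given for the main scaling only, so the counts under other scalings are no result about the list.

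**Figure D1:**
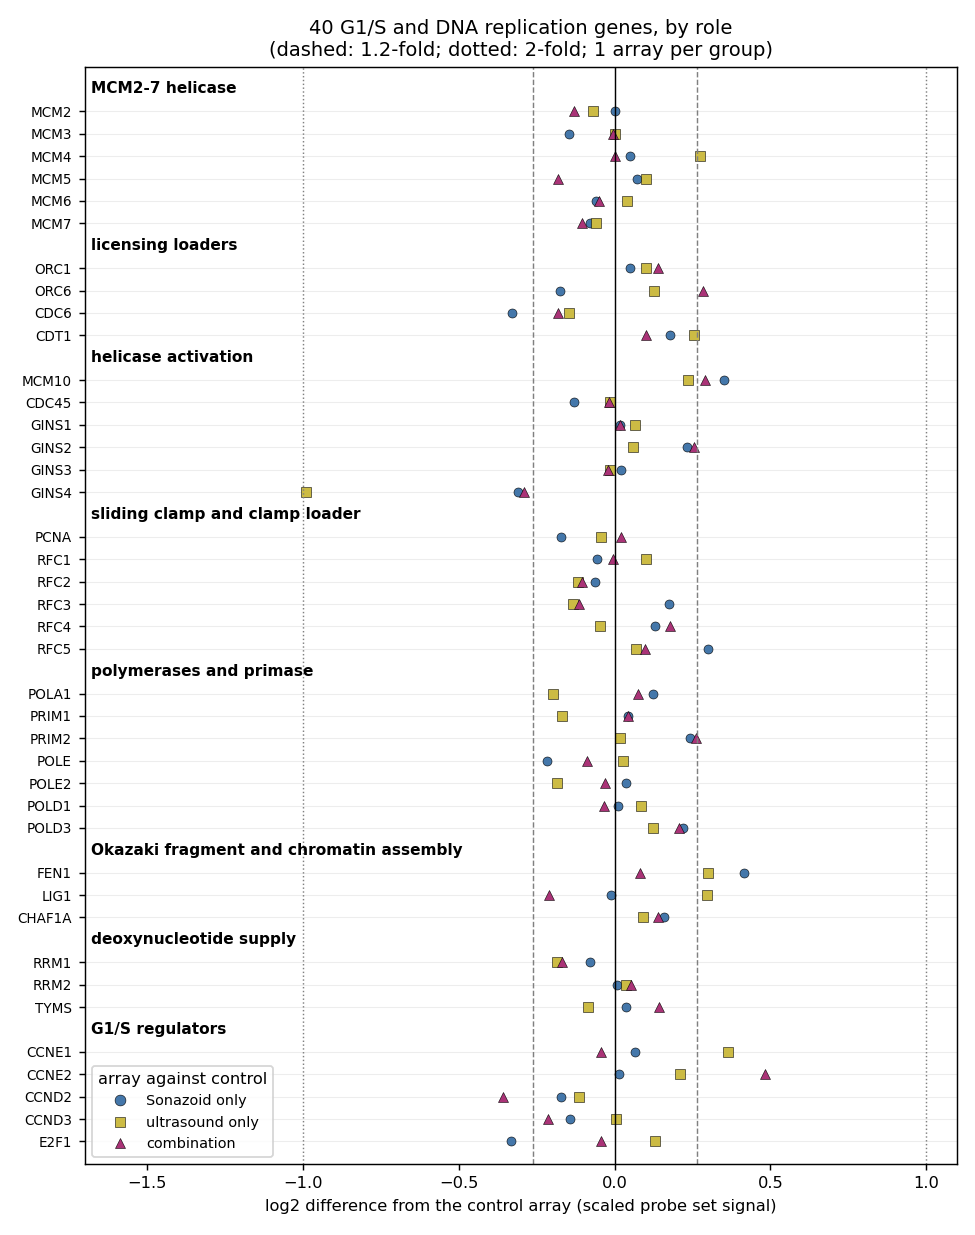
Log2 difference of each of the 40 genes from the control array (x axis), grouped by role (y axis), with a circle for Sonazoid only, a square for ultrasound only and a triangle for the combination, 1 array each. Dashed lines mark 1.2-fold and dotted lines 2-fold; most points lie between the dashed lines, and GINS4 with ultrasound only, at -0.99, is the point farthest from 0.

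**Figure D2:**
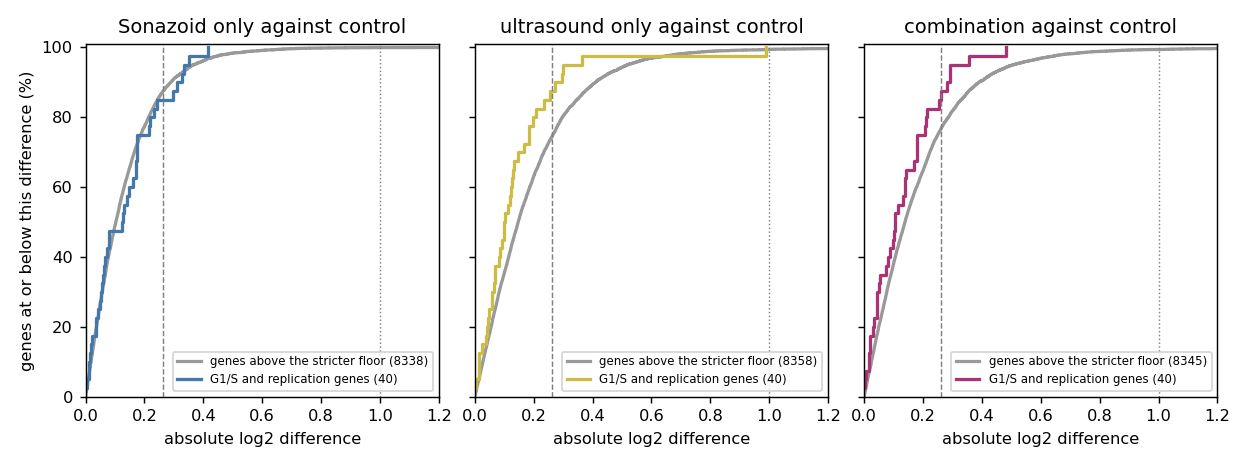
Share of genes (y axis, percent) whose absolute log2 difference from control is at or below the value on the x axis, for the 40 genes (coloured) and all genes above the stricter floor on both arrays (grey), in a panel for each treated array. The coloured line lies left of the grey one at 1.2-fold (dashed) for ultrasound only and the combination, where 12.5% of the 40 genes were past it, and close to it for Sonazoid only.

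The MCM2 to MCM7 ring, the replicative helicase core, had 1 of its 6 subunits past 1.2-fold from control on any treated array, MCM4 with ultrasound only. MCM2 stood at 4993 in control, 4996 after Sonazoid only, 4757 after ultrasound only and 4559 after the combination. MCM3 stood at 4108, 3712, 4115 and 4098 on the same arrays in that order, which is kept in the sentences that follow. MCM6 stood at 8578, 8235, 8825 and 8286, and all 3 of these subunits spanned no more than 1.11-fold over the arrays. MCM7 stood at 6268, 5930, 6016 and 5826, with control the highest. MCM5 stood at 2838, 2983, 3040 and 2502, so the combination was 1.22-fold below ultrasound only, and its other probe set had the combination lowest too (934, 995, 976 and 888). MCM4 stood at 2553, 2644, 3085 and 2554, which put ultrasound only 1.21-fold above control. Its next probe set, of similar brightness, went the other way (2744, 2548, 2361 and 2550), and of its 4 other probe sets 3 were lower with ultrasound only. All 6 subunits were lower in the combination than with ultrasound only (median -0.08, lowest -0.28), as were 6846 of the 13151 genes measured. With the values as deposited MCM2, MCM3, MCM6 and MCM7 were higher there instead, and so were the next probe sets of MCM4 and MCM6 (247 with ultrasound only and 281 in the combination for MCM6) with the arrays scaled. The median of the 6 against control was -0.08 in the combination. With the values as deposited it was 0.10, where that of all genes was 0.16.

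Among the licensing factors, ORC1, the large ATPase subunit of the origin recognition complex, was lowest in control (902) and highest in the combination (995), a log2 span of 0.14. ORC6, its smallest subunit, stood at 879 in control, 778 after Sonazoid only, 958 after ultrasound only and 1069 after the combination. Both arrays with ultrasound lay above both without, the combination being 1.22-fold above control; the gene has 1 probe set. CDC6, which loads the ring together with CDT1, stood at 887, 706, 802 and 783, highest in control and 1.26-fold lower with Sonazoid only. Its other probe set had control lowest instead, at 645, 723, 876 and 775, so the direction for CDC6 depends on the probe set. CDT1, the loading factor that geminin inhibits, stood at 1027, 1161, 1226 and 1102, a span of 1.19-fold with control lowest. Its other probe set had control highest (345, 340, 315 and 323).

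The factors that activate the loaded helicase held the widest and the narrowest spans of the list. GINS4, the SLD5 subunit of the GINS complex, stood at 706 in control, 569 after Sonazoid only, 355 after ultrasound only and 576 after the combination. The array with ultrasound only stood apart from the other 3. Its next probe set, dimmer, showed the same low point (120, 117, 65.7 and 109, a log2 difference of -0.87 with ultrasound only), the third gave -0.26 and the dimmest 0.60. The departure from additivity, which is the ultrasound difference with Sonazoid minus that without, was 1.01 for GINS4, the 1 member of 40 past 2-fold; 4.44% of all genes measured on at least 1 array and 0.355% of genes above the stricter floor on all arrays were past it. It was 0.30 as the mean of the 4 probe sets. The brightest probe sets of the partner subunits were closer to control with ultrasound only: GINS1 (PSF1) stood at 2311, 2340, 2416 and 2337, GINS2 (PSF2) at 1604, 1885, 1671 and 1915, and GINS3 (PSF3) at 554, 562, 548 and 546, a span of 1.03-fold and the narrowest of the 40. The second probe set of GINS3 was lowest with ultrasound only, at 524, 553, 474 and 535 (log2 -0.15 against control).

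CDC45, the other partner of the active helicase, stood at 777, 709, 770 and 767. MCM10, which helps the helicase to start unwinding, stood at 383 in control, 488 after Sonazoid only, 451 after ultrasound only and 469 after the combination, with control below all 3 treated arrays. Its second probe set shared the higher value with Sonazoid only (log2 0.33) but had -0.22 in the combination, and the dimmest was lower than control throughout, at 299, 247, 161 and 215. The 3 probe sets of MCM10 thus differed in direction on the arrays with ultrasound.

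**Figure D3:**
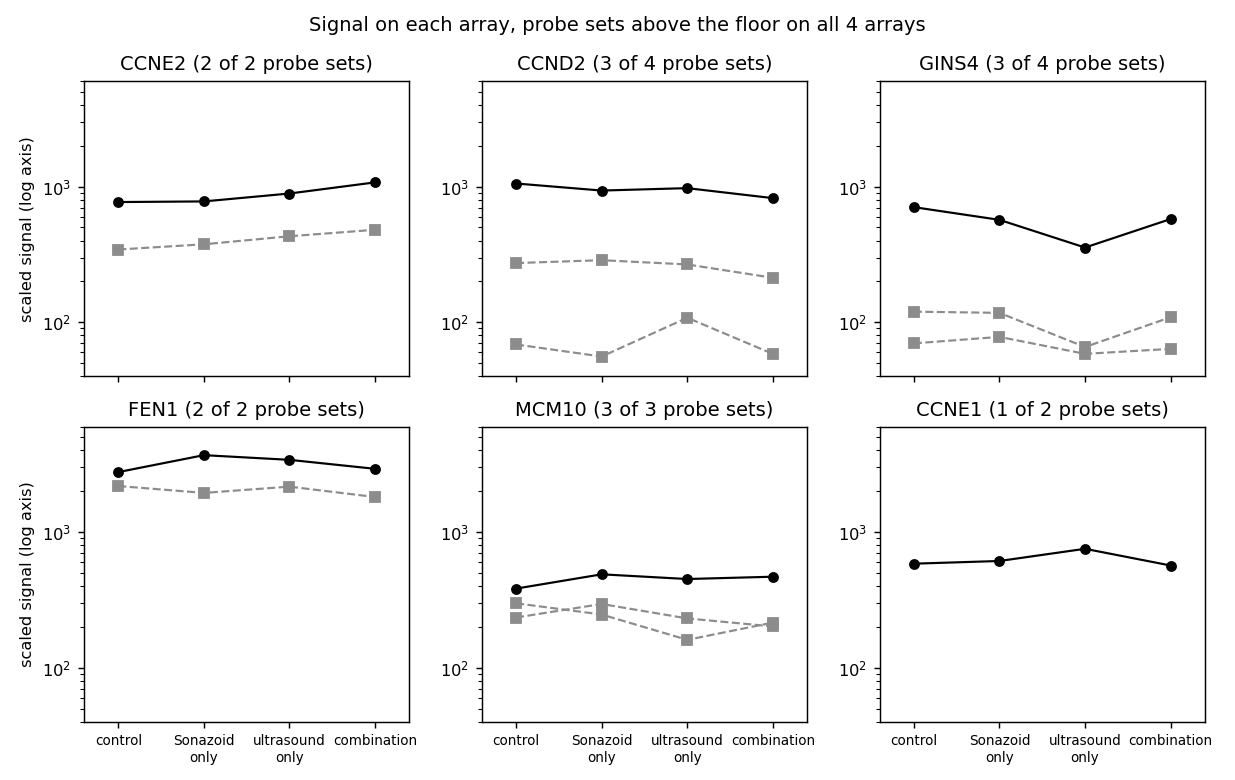
Scaled signal (y axis, log scale) on the 4 arrays (x axis, 1 array per group) for CCNE2, CCND2, GINS4, FEN1, MCM10 and CCNE1, for each probe set above the floor on all 4 arrays. Black circles are the brightest probe set and grey squares the others, with lines that only join values of a probe set; both CCNE2 lines are highest in the combination and all 3 GINS4 lines drawn are lowest with ultrasound only, while the FEN1 and MCM10 lines differ in shape.

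PCNA, the sliding clamp that holds polymerases on DNA, stood at 9216 in control, 8188 after Sonazoid only, 8939 after ultrasound only and 9354 after the combination, lowest with Sonazoid only and within 1.14-fold throughout. Of the subunits of the clamp loader, RFC1 stood at 898, 864, 964 and 894 and RFC2 at 2085, 1995, 1921 and 1939. RFC4 stood at 1665, 1820, 1610 and 1884, higher on both arrays with Sonazoid. RFC3 stood at 1897, 2143, 1730 and 1752, with both arrays with ultrasound below both without; its second probe set had the same 2 arrays lowest (1472, 1463, 1230 and 1325). RFC5 stood at 786, 966, 824 and 840, so Sonazoid only was 1.23-fold above control, but its second probe set had Sonazoid only as the lowest array (570, 449, 563 and 648).

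The polymerases and the primase stayed within 1.25-fold. POLA1, the catalytic subunit of polymerase alpha, which extends the primers, stood at 839 in control, 914 after Sonazoid only, 731 after ultrasound only and 884 after the combination. PRIM1, the catalytic primase subunit, stood at 1214, 1252, 1081 and 1251, and PRIM2, its large subunit, at 199, 236, 201 and 239. POLE2, a subunit of the leading strand polymerase epsilon, stood at 1226, 1258, 1080 and 1201. POLA1, PRIM1 and POLE2 thus had ultrasound only as their lowest array. POLA1, PRIM1 and PRIM2 were higher on both arrays with Sonazoid than on both without. POLE, the catalytic subunit of polymerase epsilon, stood at 198, 170, 202 and 186, and POLD1, that of the lagging strand polymerase delta, at 722, 728, 765 and 705. POLD3, an accessory subunit of polymerase delta, stood at 518, 604, 564 and 598, with control lowest and both arrays with Sonazoid above both without.

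Lagging strand and chromatin factors included FEN1, the nuclease that trims primer flaps. FEN1 stood at 2769 in control, 3691 after Sonazoid only, 3409 after ultrasound only and 2927 after the combination, so each treatment alone was above control, by 1.33-fold and 1.23-fold, and the combination was within 1.2-fold of it (log2 0.08). Its second probe set did not share this order (2186, 1944, 2163 and 1814, with control highest). LIG1, the ligase that seals Okazaki fragments, stood at 521, 517, 640 and 450, a span of 1.42-fold from ultrasound only down to the combination, on its 1 probe set. CHAF1A, the large subunit of chromatin assembly factor 1, stood at 568, 635, 605 and 626, with control lowest; its 2 next probe sets gave log2 differences of -0.28 and 0.23 in the combination.

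Of the 3 genes of deoxynucleotide supply none was past 1.2-fold from control on any treated array. RRM2, the small subunit of ribonucleotide reductase that is made in S phase, stood at 8089 in control, 8127 after Sonazoid only, 8306 after ultrasound only and 8396 after the combination, and its second probe set had the same order of arrays (7704, 7917, 8261 and 8333). The span of RRM2 was 1.04-fold. RRM1, the large subunit, stood at 4489, 4252, 3946 and 3994, with both arrays with ultrasound below both without by both of its probe sets (1794, 1759, 1615 and 1667 for the second). TYMS, thymidylate synthase, stood at 8916, 9149, 8409 and 9840, while its second probe set spanned 4360 to 4440.

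The G1/S regulators held the members that stood farthest from control in the combination. CCNE2, cyclin E2, which activates CDK2 at S phase entry, stood at 769 in control, 778 after Sonazoid only, 889 after ultrasound only and 1074 after the combination. Both arrays with ultrasound lay above both without, and the combination was 1.40-fold above control (log2 0.48). Its other probe set gave the same order, at 344, 376, 430 and 480, and the same log2 difference of 0.48. Under the 7 other ways of processing the difference of CCNE2 in the combination ranged from 0.43 to 0.66. Of these, no floor, the stricter floor and the use of single-gene probe sets kept the same signals and could not change it. CCNE1, cyclin E1, differed from it in pattern: it stood at 585, 612, 753 and 567, 1.29-fold above control with ultrasound only and close to control on the other arrays, on the 1 of its probe sets above the floor.

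CCND2, cyclin D2, an activator of CDK4 and CDK6, stood at 1054 in control, 935 after Sonazoid only, 974 after ultrasound only and 822 after the combination, 1.28-fold below control (log2 -0.36). Its second probe set had the combination lowest too (273, 287, 267 and 213, log2 -0.36), and its 2 dimmest gave -0.23 and -0.86, so all 4 were lower. With the values as deposited the difference was -0.18, where the median of all genes was 0.16. CCND3, cyclin D3, stood at 2446, 2217, 2455 and 2110, lower on both arrays with Sonazoid. E2F1, the activator of this gene programme, stood at 167, 132, 182 and 162, 1.26-fold lower with Sonazoid only; its dimmer probe set had control lowest (89.2, 109, 128 and 138).

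The 16 differences past 1.2-fold were set beside the other probe sets of the same genes, as a measure that does not rest on a replicate. Of the 40 genes 25 have several probe sets, and 24 of the other probe sets, of 19 genes, were above the stricter floor on all arrays. They differed from the brightest by a median of 0.11 (log2) for the combination against control, 0.12 for ultrasound only and 0.19 for Sonazoid only, which is about the size of the differences between arrays (0.11, 0.10 and 0.13). Of the 24, 11 had the sign of the brightest probe set in the combination, 12 with ultrasound only and 8 with Sonazoid only. For the genes past 1.2-fold there were 4 such probe sets in the combination, of which 2, those of CCNE2 and CCND2, were past it the same way. With ultrasound only 0 of 4 were and with Sonazoid only 1 of 6 was, the second of MCM10. The second probe set of GINS4 was outside this count because its signal with ultrasound only, 65.7, was under the stricter floor. It was lower there the same way as the brightest (log2 -0.87), while the third and the dimmest gave -0.26 and 0.60. That of E2F1, outside through its control signal of 89.2, went the other way with Sonazoid only (0.29).

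The layout of the study also sets 2 arrays with a treatment against 2 without. Both arrays with ultrasound lay above both without for 4 of the 40 genes (ORC1, ORC6, RRM2 and CCNE2) and below for 6 (MCM2, GINS3, RFC2, RFC3, POLE2 and RRM1), where 18.8% and 17.8% of all genes measured did. Both arrays with Sonazoid lay above both without for 10 genes, 25.0% of the list against 13.8% of all genes, and below for 11, 27.5% against 16.0%. All genes measured include genes at the floor on several arrays. Values tied at the floor cannot meet the rule, which can lower these background shares. No such share was computed over bright genes, so no excess in the list can be read from these percentages. The higher ones were MCM10, GINS2, RFC4, RFC5, POLA1, PRIM1, PRIM2, POLD3, CHAF1A and TYMS, and the lower ones MCM3, MCM6, MCM7, CDC6, CDC45, RFC1, POLE, LIG1, CCND2, CCND3 and E2F1. The Sonazoid differences of these genes were small, the largest mean being -0.26 for LIG1 and 0.24 for PRIM2. With the values as deposited 23 genes were higher and 1 lower, so the split depends on the scaling.

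**Figure D4:**
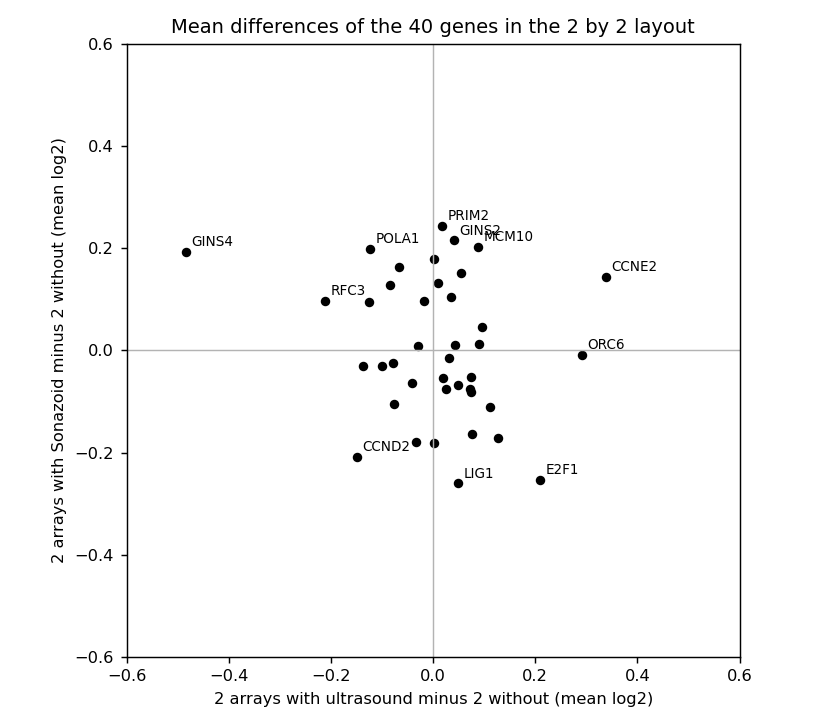
Mean log2 difference between the 2 arrays with ultrasound and the 2 without (x axis) against that between the 2 arrays with Sonazoid and the 2 without (y axis) for the 40 genes, with no error since each array is a group of its own. CCNE2 and ORC6 lie farthest right, GINS4 farthest left at -0.48, and the rest lie within 0.26 of 0 on both axes.

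What Sonazoid added to ultrasound was the combination against ultrasound only. Over the 40 genes its median was 0.004; 3 genes were at least 1.2-fold higher (GINS4, POLA1 and CCNE2) and 4 lower (MCM4, MCM5, LIG1 and CCNE1), against 15.4% and 20.0% of all genes measured. Past 1.2-fold either way were 17.5% of the list and 21.9% of the genes above the stricter floor. In the combination against Sonazoid only, the effect of ultrasound on cells with microbubbles, the median was -0.02; ORC6, CCNE2 and E2F1 were at least 1.2-fold higher and RFC3 and FEN1 lower, against 17.6% and 16.6% of all genes. Either way 12.5% of the list and 20.7% of bright genes were past it. These comparisons share arrays with those against control, so their values are not further evidence for the same gene.

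The members were also split by whether their promoter window held an E2F word, with no test of the split. CCND2, CCNE2, MCM4, MCM5, GINS4 and POLD3, with no window held here, are outside it, and they include 3 of the 5 members past 1.2-fold in the combination and GINS4, the farthest from control with ultrasound only. Of the 17 with a word 0 were past 1.2-fold in the combination, 1 with ultrasound only and 2 with Sonazoid only. Of the 17 with a window but no word 2, 2 and 3 were. Among all genes above the stricter floor 23%, 25.4% and 12.5% were past 1.2-fold either way. Genes outside the list were not split by the word, and the counts are too small to set the 2 sets of members apart. The medians were -0.03, -0.02 and 0.0008 with a word and 0.05, 0.07 and 0.04 without.

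The rest of the pathway was described from lists of genes beside these 40, whose counts in the combination stand against the 18.4% higher and 16.9% lower of all genes measured. Of 17 other licensing and origin firing genes 2 were at least 1.2-fold higher and 2 lower in the combination (median 0.02), and the median with ultrasound only was -0.10. GMNN, geminin, which blocks CDT1, was higher by 0.27 on the log2 scale. TICRR (treslin), which helps to load CDC45, was 1.32-fold lower and ORC2 1.22-fold lower, but their dimmer probe sets gave log2 differences of 0.30 and 0.05. Of 19 other polymerase and fork genes 3 were higher and 1 lower (median -0.06). With the values as deposited their median was 0.11, where that of all genes was 0.16. POLA2, the regulatory subunit of polymerase alpha, was 1.38-fold lower in the combination. It stood at 761 in control, 762 after Sonazoid only, 625 after ultrasound only and 551 after the combination. RPA3, of the complex that coats single-stranded DNA, was 1.28-fold and ATAD5, which unloads PCNA, 1.34-fold higher. POLA2 was thus lower on both arrays with ultrasound, while its catalytic partner POLA1 was lower with ultrasound only and near control in the combination.

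Of 11 other nucleotide supply genes 2 were higher and 1 lower in the combination. SAMHD1, a hydrolase that breaks down deoxynucleotides and thereby opposes ribonucleotide reductase, stood at 50.6 in control, 48.5 after Sonazoid only, 152 after ultrasound only and 117 after the combination. Both arrays with ultrasound lay above both without, 3.01-fold and 2.31-fold above control. Of its 5 other probe sets the brightest gave log2 differences of 1.57 in the combination and 1.66 with ultrasound only. The next was higher on the same arrays, and both had signals under 95.3 throughout. The rest lay under the floor on all arrays, except for a signal of 38.5 in the combination (log2 0.69). The probe set used for SAMHD1 and the brightest other carry a suffix that does not mark a single gene. TK1, the thymidine kinase of the salvage pathway, was 1.43-fold higher with ultrasound only and 1.28-fold in the combination, but its other probe set gave -0.07 and -0.06. RRM2B, the ribonucleotide reductase subunit used outside S phase, was lower on both arrays with ultrasound (312, 328, 234 and 248).

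Of 25 other G1/S control genes 5 were at least 1.2-fold higher in the combination and 0 lower (median 0.01), the first near the 18.4% of all genes measured. CDKN2D, the CDK4 and CDK6 inhibitor p19, stood at 75.2 in control, 80.0 after Sonazoid only, 149 after ultrasound only and 142 after the combination, 1.98-fold and 1.89-fold above control on the arrays with ultrasound. CDKN1A, the CDK inhibitor p21, stood at 77.0, 33.0, 148 and 132.9, also higher on both arrays with ultrasound and lowest with Sonazoid only. Both are weak signals from 1 probe set above the floor. E2F8, an E2F repressor, stood at 1374, 1646, 1306 and 1753, 1.28-fold higher in the combination. The 26 G2/M and mitosis genes, set beside the list as the other large group of cycle genes, had a median of -0.12 in the combination, with 19 below 0 and 7 above, where 6528 of all genes measured were below and 6434 above, and of -0.07 with ultrasound only. With Sonazoid only the tilt was the other way (median 0.07, 18 above and 8 below). The median in the combination turned to 0.05 with the values as deposited, where that of all genes was 0.16, so it stayed below all genes. It was -0.12 under quantile normalisation and -0.18 with median scaling, where all genes had -0.006 and -0.05. PLK1, a mitotic kinase, was 1.48-fold lower in the combination, CENPA, the centromeric histone, 1.35-fold lower and CDK1 1.25-fold higher, while 2 other probe sets of CDK1 gave 0.05.

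**Figure D5:**
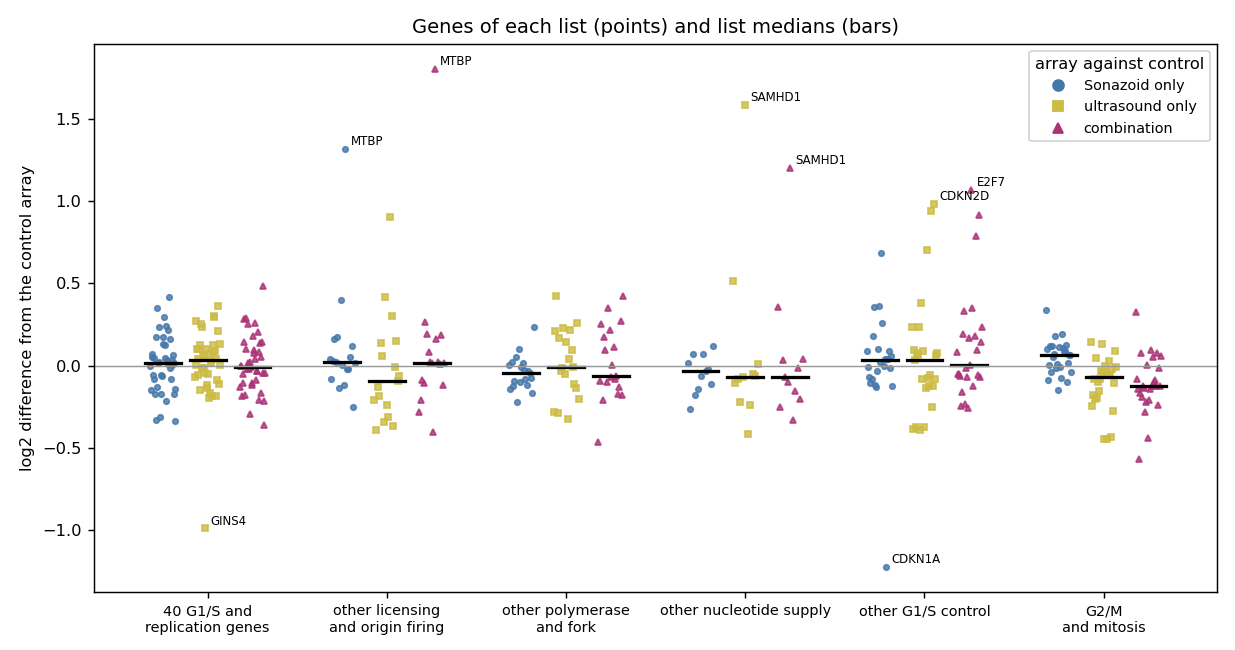
Log2 difference from control (y axis) of each gene measured (points) in the 40-gene list and 5 lists of related genes (x axis), with Sonazoid only, ultrasound only and the combination side by side, 1 array each, and the list median as a bar. The medians lie between -0.12 and 0.07, and SAMHD1 stands above its list on both arrays with ultrasound.

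The arrays were alike in the measures of quality that the table allows. Signal ratios of 3′ over 5′ probe sets lay between 1.16 and 1.2 for ACTB and between 0.946 and 1.01 for GAPDH. The log2 difference of ACTB from control was -0.07 in the combination, 0.14 with ultrasound only and -0.12 with Sonazoid only, and that of GAPDH -0.11, 0.10 and -0.16; with the values as deposited both were above 0 in the combination, and under quantile normalisation that of ACTB turned in the combination and with Sonazoid only. The cells showed myeloid markers: of 14 measured on the array 8 were above the stricter floor on all arrays, among them CTSG, ELANE, AZU1 and LYZ, while CD14 and FCGR1A were above the floor on none and MPO on 1. Of 9 T and NK cell markers 1, NKG7, was above the stricter floor on all arrays, of 7 fibroblast and endothelial markers 1, PECAM1, and of 6 B cell, 4 erythroid and platelet and 6 epithelial markers 0. The summed signal of the myeloid markers was lowest with Sonazoid only (34331) and highest with ultrasound only (42430), and its part in the differences above was not tested.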

How the data were processed

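RNA of U937 cells was measured on 4 one-colour arrays, 1 per group, with groups taken from the treatment label. The authors deposited an intensity on a linear scale for each probe set of each array; how probes were summarised and arrays scaled is not given. RNA was amplified with a 3′ amplification kit, per the labels' protocols. With Python 3.11.15, numpy 2.4.6 and pandas 2.3.3, each array was multiplied to the common 2% trimmed mean, since the trimmed means differed 1.16-fold (rule: over 1.1-fold). The median scaled value, 23.8, served as the floor; lower values were raised to it and log2 was taken; the stricter floor is 4 times higher. Of 54675 probe sets 41097 have 1 gene symbol in the platform annotation; symbols of 41043 were updated through RefSeq (GRCh38.p14), and each gene took its brightest probe set by mean signal. The fold changes, differences of log2 values, were computed here from the deposited intensities. The steps were checked on simulated data with changes of 2-fold or more in bright genes, planted alike in all probe sets of a gene. That check did not cover differences near 1.2-fold or probe sets that differ.

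The members and lists were chosen with earlier results of these data known. Named are all 40 members, up to 3 genes of each related list that were farthest from 0 in the combination and above the floor on both arrays, and ACTB and GAPDH; MTBP and E2F7, named in the closing section, were chosen after their values were seen. Differences of 2-fold were counted as large and 1.2-fold as a second threshold. Tried alternatives were 3 other scalings, no floor, the stricter floor, the mean of all probe sets and probe sets whose suffix marks a single gene. A list median counted as moved past 0.1 (log2) and a count past 1.5 times.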

Additional observations from a re-analysis of the deposited data

Results flagged for a closer look

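For 2 members the response to a treatment pointed in opposite directions, by at least 1.2-fold each, depending on the presence of the other treatment. Neither difference was tested, since each rests on 4 single arrays. The share of all genes that meet this rule is not given, so the count of 2 is no result about the list. For GINS4 the log2 difference of Sonazoid was -0.31 without ultrasound and 0.70 with it. The first was not shared by its second probe set (-0.03) and was 0.04 as the mean of all its probe sets. For FEN1 the log2 difference of ultrasound was 0.30 without Sonazoid and -0.33 with it, a departure of -0.64, where its second probe set gave -0.08.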

How the results depend on the processing

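No paired analysis was possible because each group had 1 array. Without a floor and with the stricter floor, no median or count over the 40 genes could move, since all 40 lay above the stricter floor on all arrays. With the values as deposited, the median of the 40 genes was 0.17 in the combination against control and 0.22 against ultrasound only, and that of the departure 0.11. With those values the medians of all genes were 0.16 against control and 0.19 against ultrasound only. The 1.2-fold counts there were 12 higher and 0 lower in the combination, 1 higher with ultrasound only, and 8 higher and 0 lower with Sonazoid only. GINS4 passed 2-fold lower with ultrasound only, 1 gene, there and with median scaling. With deposited values 1 gene lay below with both ultrasound arrays, and with both Sonazoid arrays 23 lay above and 1 below; the latter count was 7 under quantile normalisation. Median scaling gave 1 higher and 4 lower in the combination, 1 higher with ultrasound only, and 2 genes above with both ultrasound arrays. The mean of all probe sets gave 1 lower in the combination, 1 higher with Sonazoid only and 8 above with both ultrasound arrays. Single-gene probe sets, which 29 members have, gave 3 lower with ultrasound only, 1 higher with Sonazoid only and 6 below with both Sonazoid arrays. Matching shares of all genes are given for the main run only, so no excess or lack in the list can be read from these counts. Of the 16 member differences past 1.2-fold, those of CCNE2 in the combination and GINS4 with ultrasound only stayed past it under each alternative run. For both, no floor, the stricter floor and single-gene probe sets kept the same signals, so these could not differ from the main run. The others fell under 1.2-fold in at least 1 alternative. The cause of these shifts was not tested. Signal over background did not limit the members, since all 40 lay above the stricter floor, but it limits SAMHD1, CDKN1A and CDKN2D.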

Other observations

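MTBP, a partner of treslin in origin firing, had a control signal below the floor and reached 59.5 after Sonazoid only, 44.5 after ultrasound only and 83.3 after the combination, at least 3.49-fold higher in the last. Its 3 other probe sets were below or near the floor on all arrays. E2F7, an E2F repressor, had a control signal below the floor and stood at 38.3, 38.8 and 50.1 on the treated arrays, and its other probe set was below the floor throughout. Both genes were chosen after their values were seen.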
